A study of Homo sapiens with 58 samples.

Results

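The peaks described here are those that the deposited table of HuR binding names ACTB, ACTG1, POTEF or POTEE, 18 of its 387214 peaks. ACTB (ENSG00000075624) had 6 peaks, ACTG1 (ENSG00000184009) had 7, POTEF (ENSG00000196604) had 5 and POTEE had 0. Together they held 24733 of the 7887093 CLIP tags in the table, and ACTB alone held 23580 of them. A tag is 1 sequenced RNA fragment pulled down with an antibody to HuR, the product of ELAVL1, after UV light had fixed RNA to the proteins that bind it. ACTG1 held 712 tags and POTEF held 441. Every library is from Huh-7.5, a human hepatocellular carcinoma line.

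The 12 fraction libraries, 3 in each of 4 groups, are from the nuclear and the cytoplasmic fraction of cells after mock treatment or after 45 min in 0.5 mM sodium arsenite, an oxidative stressor. Their cells are labelled WT, without an APEX construct, and all 12 belong to the library set JL0380. The other 46 libraries are from 3 lines that carry APEX, a peroxidase that tags nearby proteins with biotin, as APEX-NLS in the nucleus, APEX-NES in the cytoplasm or APEX-G3BP1 on a stress granule protein, and these cells went through the labelling reaction. Each line was mock or arsenite treated, and its libraries are either inputs (17), with the HuR immunoprecipitation alone, or enriched (29), with a streptavidin capture as well. They belong to the sets JL0361, JL0388 and JL1024. All cells were crosslinked with UV at 400 and 200 mJ/cm2. Nothing in the labels says that libraries of a group came from separate cultures, so p-values measure the spread between these libraries.

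ACTB and ACTG1 encode beta-actin and gamma-actin, the nonmuscle actins that build the filaments of the cell cortex, of stress fibres and of cell junctions, and that also occur in the nucleus. Their proteins are nearly the same, while their 3' untranslated regions (3'UTRs) differ. POTEF and POTEE belong to a primate gene family in which an actin-like copy is fused to ankyrin repeats, and the actin part closely resembles ACTB, so that a short fragment of ACTB mRNA can match several of these genes. HuR binds U-rich and AU-rich stretches, mostly in 3'UTRs and introns, shuttles between nucleus and cytoplasm, and is known for raising the stability of bound mRNAs; the ACTB 3'UTR is among its known targets. A tag count rises with the amount of an RNA as well as with the share of it that HuR holds, and these cannot be told apart here, nor can fewer cells be told apart from less RNA per cell.

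The peaks together held 235471 to 673322 tags in a fraction library, 1353 to 484305 in an input and 519 to 86419 in an enriched library, and 16 libraries were under 10000. Values are given in CPM, tags per 1000000 of the library total that the authors divided by (4662 to 2622677 tags). Of the genes checked for a hepatocyte-type line, 8 of 10 had peaks (APOA1 and TTR had none), and their sum ran from 657 to 2524 CPM in the fractions. Of 6 genes of other cell types 3 had peaks, CD3E, COL1A1 and DCN had none, and the sum was at most 5.46 CPM in the fractions, 14.9 CPM in enriched libraries and 117 CPM in inputs. The nuclear RNA NEAT1 was higher in the nuclear than in the cytoplasmic mock fraction (log2 difference 1.71, SE 0.12, adjusted p = 6.02e-08, limma), whereas MALAT1 was not called (0.10, adjusted p = 0.496). Both hepatocyte-type genes and actins were higher in cytoplasmic mock libraries: the hepatocyte-type sum was 1780 to 2524 CPM there against 1113 to 1195 in nuclear mock, 657 to 712 in nuclear arsenite and 947 to 1067 in cytoplasmic arsenite libraries. Its part in the results below was not tested.

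The ACTB peaks lie on chromosome 7 of GRCh38, where RefSeq places the gene at chr7:5527148-5530601 on the minus strand, and 5 of them fall inside it. Every peak in the table is 20 nt long, so levels can be compared between peaks. The highest ACTB peak, chr7:5527610-5527630, held 16343 tags and lies in the 3'UTR, 462 nt before the RefSeq 3' end of the gene. It had rank 2 among all peaks of the table by total tags, rank 1 by mean level in the cytoplasmic mock libraries, rank 2 in cytoplasmic arsenite, 6 in nuclear arsenite and 13 in nuclear mock. A peak 316 nt nearer the 3' end (chr7:5527294-5527314, 146 nt before it) held 4262 tags, and one 130 nt nearer (chr7:5527480-5527500) held 1901. On the other side, 82 nt upstream, chr7:5527692-5527712 held 825 tags. These 4 peaks are 3'UTR in the table. A peak 1077 nt upstream (chr7:5528687-5528707, 242 tags) has 3'UTR, coding sequence and intron among its annotations, depending on the transcript. The only ACTB peak of class intron, chr7:5561189-5561209, held 7 tags and lies 34041 nt from the 3' end, outside the RefSeq span.

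ACTG1 peaks lie on chromosome 17, within chr17:81509971-81512799. The highest, chr17:81510082-81510102, held 584 of the 712 tags and lies in the 3'UTR, 111 nt before the RefSeq 3' end. The other 5 peaks of class 3'UTR held 15 to 35 tags each, and 1 peak of class intron (chr17:81511714-81511734) held 18. For POTEF, on chromosome 2 at chr2:130073535-130129222, the highest peak was chr2:130074098-130074118 in the 3'UTR with 330 tags, followed by chr2:130073798-130073818 in the 3'UTR, 300 nt nearer the 3' end, with 62. The higher of its 2 peaks of class coding sequence, chr2:130074977-130074997, held 30 tags. No peak carries the name POTEE. Inside the RefSeq span of POTEE, chr2:131209536-131265278, and on its strand, 4 peaks with 437 tags carry the name of PLEKHB2, which RefSeq places at chr2:131105336-131149845, outside that span. They are called the POTEE locus below. How the authors placed a tag that matches several of these copies is not given in the sources used here, so the split of tags among ACTB and the POTE genes is uncertain.

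In mock-treated cells all 3 actin-type genes had far more HuR tags in the cytoplasmic than in the nuclear fraction. The sum over ACTB peaks was 1869, 2594 and 2693 CPM in the cytoplasmic mock libraries and 256, 239 and 253 CPM in the nuclear ones. The groups were far apart, with means of 2385 ± 450 and 249.5 ± 9.18 CPM (SD, n = 3 each). The log2 difference, nuclear minus cytoplasmic, was -3.23 (SE 0.13, adjusted p = 1.59e-09, limma), which is 9.37-fold lower in the nucleus. For ACTG1 the cytoplasmic libraries had 77.6, 110.0 and 122 CPM, and the nuclear ones 1.46, 8.18 and 15.4 CPM, also with no overlap. The ACTG1 difference was -3.55 (SE 0.40, adjusted p = 8.70e-06, limma) and rests on 26 nuclear tags. POTEF had 47.9, 69.3 and 68.5 CPM in the cytoplasm, while its nuclear mock libraries held 0, 2 and 0 tags. From the tags the cytoplasmic level was 87.5 times the nuclear one (95% exact interval 23.9 to 728, counting error only), and limma gave -4.51 (SE 0.32, adjusted p = 7.90e-08) on the log2(value + pseudocount) scale, which understates low values. All 3 genes with peaks were called lower in the nucleus, where 18.3% of all 10637 genes tested were called lower and 32.2% were called in either direction. POTEF passed the filter through the cytoplasmic libraries, which fixed its direction, so its call adds no support.

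Arsenite brought the fractions closer together from both sides. In the cytoplasm, ACTB fell to 925, 1164 and 1007 CPM, all below the 3 mock libraries (log2 difference -1.19, SE 0.15, adjusted p = 3.31e-05, limma). ACTG1 fell to 41.9, 34.1 and 27.8 CPM (-1.51, SE 0.19, adjusted p = 4.22e-05), and POTEF to 18.8, 21.6 and 17.4 CPM (-1.56, SE 0.19, adjusted p = 2.92e-05). On that scale the 3 genes were 2.29-fold, 2.85-fold and 2.95-fold lower, in a comparison where 9.91% of 11308 genes fell and 10.2% rose. In the nucleus, ACTB rose to 517, 496 and 458 CPM, all above the mock libraries (0.97, SE 0.08, adjusted p = 5.89e-08). POTEF rose to 11.2, 14.4 and 2.60 CPM, from a group with 2 tags in all (1.89, SE 0.44, adjusted p = 0.00943), a call that was kept only without nuclear mock replicate 2 when 1 of the 6 libraries was left out. It passed the filter through the arsenite libraries, which fixed its direction, so this call supports nothing. ACTG1 had 11.2, 19.2 and 13.9 CPM in the nucleus after arsenite, overlapping the mock libraries, and was not called (0.92, SE 0.42, adjusted p = 0.213). In this comparison 5.57% of 10799 genes rose.

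After arsenite ACTB was still lower in the nucleus, at 490 ± 29.9 against 1032 ± 122 CPM (SD, n = 3 each; log2 difference -1.06, SE 0.08, adjusted p = 8.70e-11, limma). The differences of ACTG1 (-1.12, SE 0.21, adjusted p = 5.51e-04) and POTEF (-1.06, SE 0.32, adjusted p = 0.0360) were close to that of ACTB in size. Of all 11507 genes tested, 5.51% were called lower. The POTEF call was lost with any of 5 of the 6 libraries left out (all but nuclear arsenite replicate 2) and with a 4 times smaller pseudocount (adjusted p = 0.0696), and the ACTG1 call without nuclear arsenite replicate 3 or cytoplasmic arsenite replicate 2. The effect of arsenite itself differed between the fractions for all 3 genes, by 2.16 (SE 0.14, adjusted p = 9.71e-16) for ACTB, 2.43 (SE 0.41, adjusted p = 1.79e-05) for ACTG1 and 3.46 (SE 0.46, adjusted p = 1.31e-07) for POTEF on the log2 scale (interaction term, limma). Such an interaction in the same direction was called for 8.06% of 12629 genes.

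**Figure D1:**
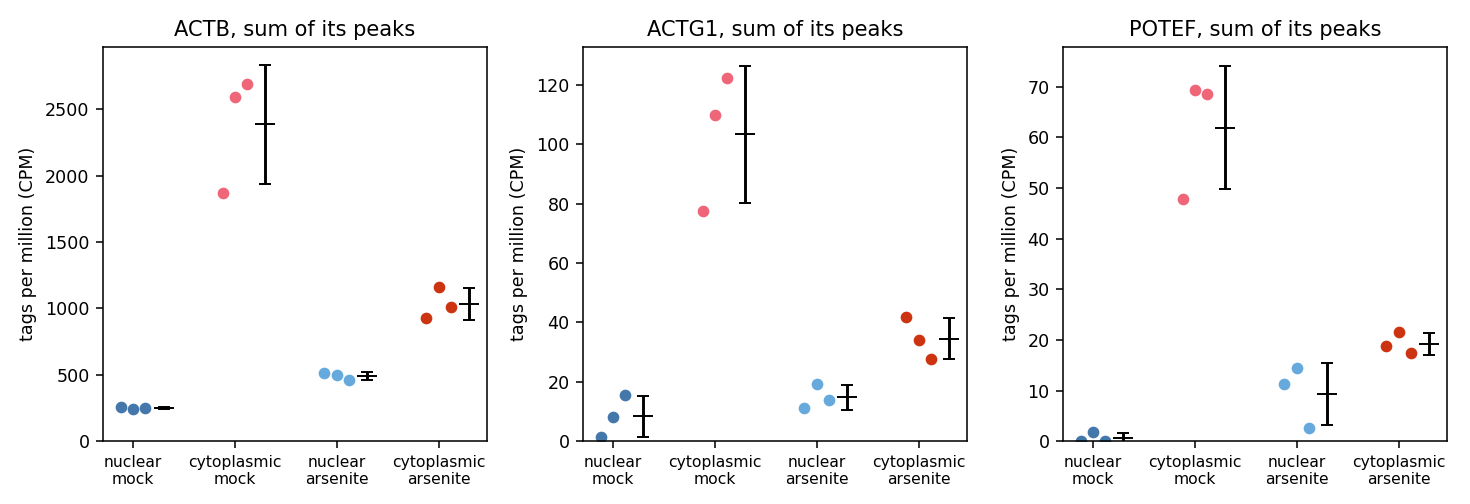
Sum of all peaks of ACTB, ACTG1 and POTEF in each fraction library (points, tags per 1000000 of the library total) with the group mean and SD (black bars, n = 3), each panel on its own axis that starts at 0. Cytoplasmic mock libraries are highest for all 3 genes and do not overlap any other group, and the nuclear mock libraries of ACTB (239 to 256 CPM) lie below its nuclear arsenite libraries (458 to 517 CPM).

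The ACTB peaks did not move together. The highest ACTB peak had 1326, 1842 and 1894 CPM in cytoplasmic mock libraries and fell to 476, 662 and 537 CPM with arsenite (log2 difference -1.59, SE 0.15, adjusted p = 0.00285, limma). The peak 130 nt downstream of it fell more, from 188, 272 and 236 CPM to 48.4, 52.3 and 48.0 CPM (-2.16, SE 0.18, adjusted p = 0.00190), and the peak 82 nt upstream fell from 87.2, 105 and 99.1 to 26.7, 39.2 and 27.1 CPM (-1.59, SE 0.22, adjusted p = 0.0118). By contrast, the peak 316 nt downstream had 263, 368 and 456 CPM in cytoplasmic mock and 363, 387 and 383 CPM in cytoplasmic arsenite libraries, which overlap (0.10, SE 0.18, adjusted p = 0.845). The peak 1077 nt upstream had 4.25, 8.15 and 8.44 CPM in mock and 10.8, 23.9 and 11.8 CPM in arsenite libraries. These groups do not overlap, but the test did not call them (0.91, SE 0.34, adjusted p = 0.148). Of the 16 peaks of the members tested in this comparison 5 were called, all lower, against 0.76% of all 193897 peaks called in either direction. Besides the 3 ACTB peaks these were the highest peaks of ACTG1 and POTEF. No peak of any gene was called in this comparison without cytoplasmic mock replicate 2. The calls at the ACTB peak 82 nt upstream and the highest POTEF peak were also lost without cytoplasmic mock replicate 1 or 3, that at the highest ACTB peak without replicate 3, and that at the highest ACTG1 peak without replicate 3 or cytoplasmic arsenite replicate 2, and edgeR with TMM scaling called 2 of the members' peaks and 0.465% of all.

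In the nucleus, arsenite raised other ACTB peaks more than the highest. The peak 1077 nt upstream held a single tag in the 3 nuclear mock libraries together and 67 tags after arsenite, at 22.4, 14.4 and 18.2 CPM (log2 difference 2.99, SE 0.31, adjusted p = 0.00188, limma). It passed the filter through the arsenite libraries, which fixed its direction, and its size rests on the pseudocount. Its call and its place in the count below therefore support nothing. The peak 316 nt downstream rose from 36.4, 50.9 and 41.5 to 112, 142 and 133 CPM (1.54, SE 0.17, adjusted p = 0.00275), and the highest peak from 170, 143 and 171 to 328, 291 and 264 CPM (0.86, SE 0.11, adjusted p = 0.00789). All 3 pairs of groups are apart. The peak 130 nt downstream stood at 40.8, 34.5 and 31.9 CPM in mock and 40.0, 35.2 and 34.7 CPM in arsenite libraries (0.04, adjusted p = 0.952). These 3 ACTB peaks were the only ones called among 10 tested of the members, against 0.186% of 200232 peaks. None of them was called without nuclear mock replicate 1, nuclear arsenite replicate 1 or nuclear arsenite replicate 2, the highest peak also not without nuclear arsenite replicate 3, with a 4 times smaller pseudocount (adjusted p = 0.0713) or with edgeR and the authors' totals (0.171), and edgeR with TMM scaling called only the peak 1077 nt upstream among them and 0.0629% of all peaks.

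Within mock-treated cells, all 5 ACTB peaks inside the gene were lower in the nucleus, with log2 differences from -3.36 for the highest peak (SE 0.14, adjusted p = 2.48e-05, limma) and -3.16 for the peak 82 nt upstream to -1.81 for the peak 1077 nt upstream (SE 0.33, adjusted p = 0.0188). With the 2 highest peaks each of ACTG1 and POTEF, 9 of 14 peaks of the members tested were called, all lower, against 2.82% of 157168 peaks in either direction and 2.29% lower. Of these 9, the lower POTEF peak held 0 tags in the nuclear mock libraries, and the lower ACTG1 peak and the ACTB peak 1077 nt upstream held 1 each. The highest POTEF peak held 2, both in 1 library. These 4 passed the filter through the cytoplasmic libraries, which fixed their direction, so the count supports nothing. The highest ACTG1 peak, at 0 in 1 nuclear mock library, needed the cytoplasmic libraries too. After arsenite 2 of 16 were called, the ACTB peak 316 nt downstream (-1.54, SE 0.09, adjusted p = 1.15e-06) and the highest (-0.91, SE 0.10, adjusted p = 4.93e-04), against 0.257% of 236332 peaks. The highest ACTG1 peak (-1.37) and the ACTB peak 82 nt upstream (-1.33) were called lower too with no filter (adjusted p = 0.00760 and 0.00532), with the filter of non-zero in every library (7.30e-05 and 6.86e-05) and with edgeR and the authors' totals (0.00108 and 4.74e-04). Without cytoplasmic mock replicate 2 no peak of any gene was called in the mock comparison. The mock call at the ACTB peak 1077 nt upstream was lost with any of the 6 libraries left out and with edgeR and TMM (adjusted p = 0.0877), those at the lower ACTG1 and POTEF peaks with any of 5 and with edgeR and TMM (0.116 and 0.129), and that at the highest ACTG1 peak with any of 4. A 4 times smaller pseudocount lost the calls at both ACTG1 peaks (0.0580 at the highest and 0.0552 at the lower). In the arsenite comparison the call at the highest ACTB peak was lost with any of the 6 libraries left out and with edgeR (adjusted p = 0.116 with the authors' totals, 0.424 with TMM), and that at the peak 316 nt downstream without nuclear arsenite replicate 3 or cytoplasmic arsenite replicate 2. The arsenite effect differed between the fractions at 6 of 18 peaks, where 0.352% of 334689 peaks were called. These were the highest peaks of the 3 genes (2.45 for ACTB, 2.43 for ACTG1 and 3.76 for POTEF) and the ACTB peaks 130 nt downstream (2.20), 82 nt upstream (1.83) and 316 nt downstream (1.45). The ACTB peak 1077 nt upstream was not called (2.08, adjusted p = 0.0578), but was with a 4 times smaller pseudocount (3.49, adjusted p = 0.00521) and with edgeR (4.14 and 0.00620 with the authors' totals, 4.05 and 0.00996 with TMM). The calls at the highest ACTG1 peak and at the ACTB peak 82 nt upstream were lost with any of 9 and 8 of the 12 libraries left out and with a 4 times larger pseudocount (adjusted p = 0.0682 and 0.109), the second also when scaled to tags in peaks (0.0647), and that at the ACTB peak 316 nt downstream with edgeR and TMM (adjusted p = 0.0533).

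As a result the tags of ACTB were spread differently along its 3' end after arsenite. In the cytoplasm the peak 316 nt downstream took 15.0 ± 1.62% of ACTB tags in mock and 36.8 ± 3.21% in arsenite libraries (SD, n = 3), and the share of the highest peak went from 70.8 ± 0.38% to 53.9 ± 2.74%. In the nucleus the downstream share went from 17.3 ± 3.63% to 26.4 ± 4.14%. The mock libraries lie at 14.1 to 16.9% in the cytoplasm and 14.2 to 21.3% in the nucleus, below the arsenite libraries at 33.2 to 39.3% and 21.7 to 29.1%. The differences were 21.8 and 9.14 percentage points, each with p = 0.1 in a two-sided exact permutation test, the smallest p that 3 libraries against 3 can give. The share of the peak 1077 nt upstream was 0.285 ± 0.0497% in cytoplasmic mock (20 tags) and 1.47 ± 0.507% in cytoplasmic arsenite (74 tags). In the nucleus it was 0.127 ± 0.220% and 3.74 ± 0.744% (differences 1.18 and 3.61 points, exact permutation p = 0.1 each, groups apart). These shares were chosen for testing after the peak levels had been seen.

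**Figure D2:**
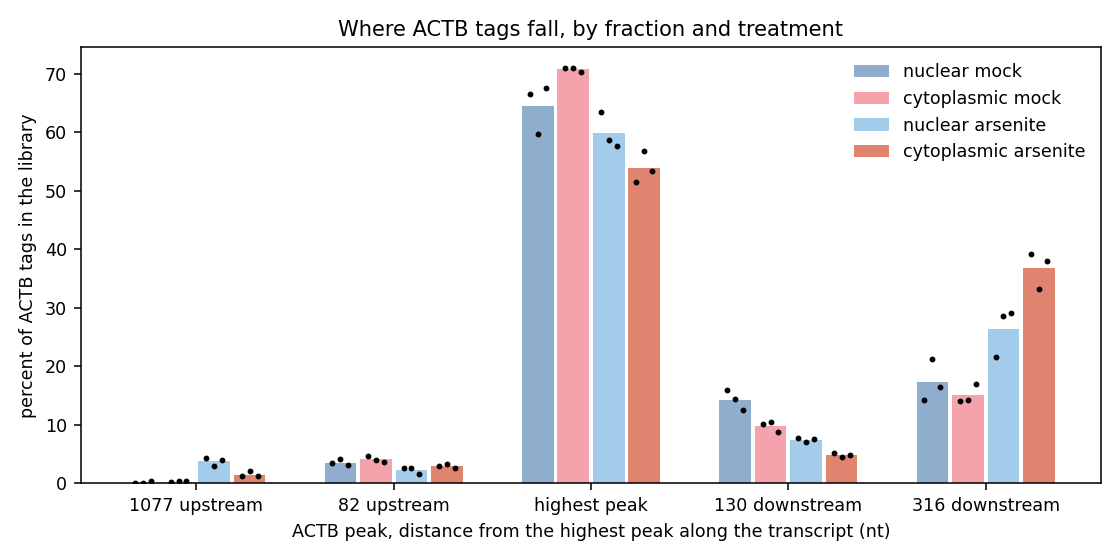
Percent of a library's ACTB tags in each of the 5 peaks inside the gene, by distance from the highest peak, with group means (bars, from 0) and single libraries (points, n = 3 per group). Distances are between genome positions, introns included, in the direction of the transcript. In cytoplasmic arsenite libraries the highest peak holds 51.4 to 56.8% and the peak 316 nt downstream 33.2 to 39.3%, against 70.3 to 71.0% and 14.1 to 16.9% in cytoplasmic mock libraries.

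By annotation class, ACTB tags fell in peaks of class 3'UTR almost without exception, at 99.83% to 100% of its tags as group means over the 4 fraction groups. That class includes the peak 1077 nt upstream, which also has coding sequence and intron annotations. This peak held 3.74 ± 0.744% of ACTB tags in nuclear arsenite and 1.47 ± 0.507% in cytoplasmic arsenite libraries. ACTG1 tags in the cytoplasm also fell in peaks of class 3'UTR, at 99.5 ± 0.79% in mock and 100% in arsenite libraries. In the nucleus the ACTG1 share was 76.3 ± 10.4% after arsenite (64.3 to 83.3%) and 60.9 ± 52.8% in mock, where 1 library with a single ACTG1 tag had a share of 0 and the highest had 93.75%. The nuclear arsenite libraries lie below the cytoplasmic ones (difference -23.7 points, exact permutation p = 0.1, two-sided, the smallest possible). The tags outside the 3'UTR class came from the peak of class intron, which held 12 of its 18 tags in the nuclear arsenite libraries, in all 3 of them, and none in the cytoplasmic arsenite ones. In the peak test its nuclear minus cytoplasmic difference after arsenite was not called (1.27, SE 0.27, adjusted p = 0.0697, limma). Of the 5 lower ACTG1 peaks of class 3'UTR, the one 100 nt upstream of the highest was called lower in the mock nucleus (-1.54, SE 0.30, adjusted p = 0.0260). It held 1 nuclear mock tag and passed the filter through the cytoplasmic libraries, which fixed its direction. With edgeR and TMM the call was lost (adjusted p = 0.116). With 15 to 35 tags each, smaller differences at these 5 lower peaks were not detectable.

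The highest ACTG1 peak, too, was lower in the mock nucleus than in the cytoplasm and fell in the cytoplasm with arsenite. It had 64.9, 95.7 and 110 CPM in cytoplasmic mock libraries, and 0, 6.36 and 11.6 CPM in nuclear mock libraries (log2 difference -3.80, SE 0.56, adjusted p = 0.00671, limma). Arsenite lowered it in the cytoplasm to 31.8, 27.3 and 23.6 CPM (-1.61, SE 0.24, adjusted p = 0.0187), and in the nucleus it stood at 5.61, 15.2 and 8.66 CPM, overlapping the mock libraries (0.82, SE 0.55, adjusted p = 0.741). In cytoplasmic mock libraries its mean of 90.1 ± 22.9 CPM compares with 1687 ± 314 CPM at the highest ACTB peak, both over 20 nt (SD, n = 3).

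POTEF and the other POTE loci with an actin-like part held peaks on both sides of a highest peak, as ACTB does, at a small fraction of its level. The highest POTEF peak had 43.6, 58.1 and 61.2 CPM in cytoplasmic mock libraries, 10.8, 11.9 and 6.96 CPM after arsenite (log2 difference -2.22, SE 0.26, adjusted p = 0.00673, limma), and 0, 2 and 0 tags in the nuclear mock libraries (-4.33, SE 0.33, adjusted p = 2.66e-04). In the mock comparison it passed the filter through the cytoplasmic libraries, which fixed its direction. The peak 300 nt downstream of it held 16 tags in the cytoplasmic and 0 in the nuclear mock libraries, entered that comparison through the cytoplasmic libraries alone, and its call was lost with edgeR and TMM (adjusted p = 0.129). It was not called for arsenite in the cytoplasm, at 3.19, 7.13 and 6.33 CPM in mock and 3.61, 7.39 and 6.26 CPM in arsenite libraries (0.04, SE 0.32, adjusted p = 0.948).

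Across POTEF, the POTEE locus, POTEI, POTEJ, POTEM and POTEKP, each locus had a highest peak (38 to 506 tags), all 6 had a peak 873 to 879 nt upstream of it (28 to 39 tags), and 5 had one 300 to 315 nt downstream (14 to 62 tags). A further peak lay 100 to 106 nt upstream at 5 loci (7 to 10 tags). In ACTB the peaks stand 1077 nt upstream, 82 nt upstream and 316 nt downstream by genome position. Distances were measured from each locus's own highest peak, and no sequences were aligned, so which peaks correspond was not tested. The ACTB peak 130 nt downstream has no counterpart at that distance, and 3 of the loci had a peak 175 to 188 nt downstream instead (10 or 11 tags). The table annotates the far upstream peak as coding sequence at the POTEF, POTEE, POTEI and POTEJ loci and as 3'UTR at POTEM, and it gives POTEKP no class.

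With arsenite in the cytoplasm, the highest peak was called lower at 5 of the 6 loci, with log2 differences from -2.47 to -1.89 (limma). The other was POTEKP, with 38 tags in all (-0.20, adjusted p = 0.875). None of the 5 downstream peaks (0.04 to 0.86) and none of the 5 far upstream peaks tested (0.49 to 0.63) was called, and all of these differences had a positive sign, as did the ACTB peaks 316 nt downstream and 1077 nt upstream (0.10 and 0.91). The far upstream peaks tested at the copies held 1 to 3 cytoplasmic mock tags and 10 to 14 after arsenite. All but that of the POTEE locus needed the arsenite libraries to pass the filter, which favoured a positive sign. With 1 library left out, the difference at the downstream peak ran from -0.19 to 0.25 for POTEF and from -0.12 to 0.28 for ACTB. The loci share tags of near-identical sequence, so they are not independent of ACTB or of each other. In the mock nucleus the highest peak was lower at all 5 loci tested (-4.33 to -3.69), from 2 to 10 nuclear tags each. Those of POTEF, the POTEE locus and POTEI were at 0 in at least 1 nuclear mock library. They needed the cytoplasmic libraries to pass the filter, which favoured this direction. The downstream peaks tested held 0 tags in the nuclear mock libraries and entered the test through the cytoplasmic libraries alone, so their direction was fixed and their size set by the pseudocount.

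**Figure D3:**
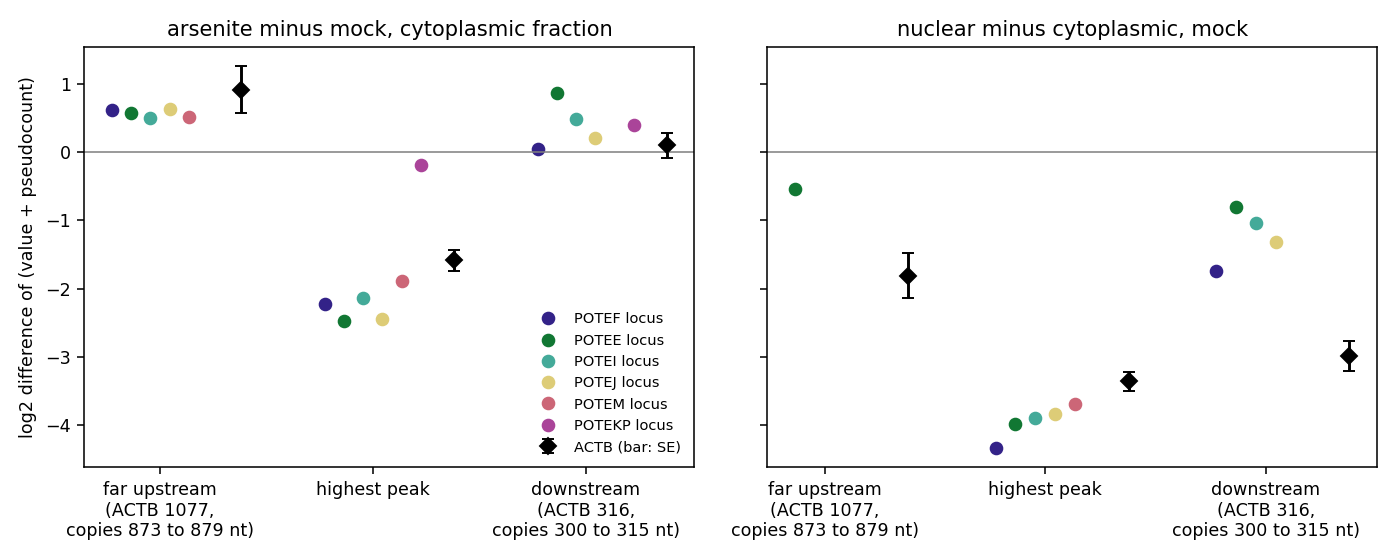
Log2 differences, on the log2(value + pseudocount) scale, of the highest peak, the far upstream peak and the downstream peak at 6 POTE loci (coloured points, where tested) and at ACTB (black diamonds with SE), for arsenite against mock in the cytoplasm (left) and nuclear against cytoplasmic mock libraries (right). In the right panel the downstream peaks of the copies held 0 tags in the nuclear mock libraries. On the left the highest peaks lie from -2.47 to -0.20, and the far upstream and downstream peaks of the copies lie from 0.04 to 0.86.

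Measured against ACTB in the same library, the copies held few tags. In cytoplasmic mock libraries the POTEF sum was 2.59 ± 0.0679% of the ACTB sum (SD, n = 3), and those of the POTEE locus, POTEI, POTEJ and POTEM were 2.53 to 3.08% as group means. After arsenite POTEF stood at 1.87 ± 0.152% in the cytoplasm, below all 3 mock libraries (1.73 to 2.03% against 2.55 to 2.67%), and the same 4 loci stood at 1.51 to 1.93%. In nuclear mock libraries POTEF was at 0 to 0.760% of ACTB, from 2 tags. POTEKP was at 0.318 ± 0.173% in cytoplasmic mock and 0.552 ± 0.204% in cytoplasmic arsenite libraries, which overlap.

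Among the other actin and POTE genes, 9 of 15 had peaks, and none was named ACTA2, ACTC1, ACTG2, ACTBL2, POTEA or POTEB. In the mock comparison 4 of the 5 tested were lower in the nucleus, against 18.3% of all genes, and the other was not called. The tested genes include POTEI, POTEJ and POTEM, which held 6 to 10 nuclear mock tags. These near-copies share tags with ACTB and each other, so the count is not one of independent genes. The skeletal muscle actin gene ACTA1 held at most 7 tags in any fraction group (nuclear arsenite, 1.96 ± 1.37 CPM). It was not called in any of the 3 comparisons that tested it.

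Genes that bind, nucleate or cross-link actin were lower in the nucleus more often than higher. Of 70 such genes in 5 lists, which were chosen with earlier results of these data known, 69 had peaks. In mock-treated cells 26 of the 65 tested were lower in the nucleus and 10 were higher, with a median log2 difference of -0.64 against 0.01 over all genes, of which 18.3% were lower and 13.8% higher. The largest falls were in TPM3, a tropomyosin (-3.08, SE 0.14, adjusted p = 2.00e-09, limma), ACTR2, a subunit of the Arp2/3 nucleator (-2.70, SE 0.16, adjusted p = 1.37e-08), and PFN1, a profilin that binds actin monomers (-2.58, SE 0.22, adjusted p = 3.70e-07). The largest rises were in EVL, a filament elongation factor (1.05, SE 0.35, adjusted p = 0.0304), CTNNA1, alpha-catenin (0.84, SE 0.18, adjusted p = 0.00262), and CAP2, a cyclase-associated protein (0.84, SE 0.30, adjusted p = 0.0457). ACTB and ACTG1 differed by more than any of these. By list, 5 of 14 monomer binding genes, 10 of 20 nucleation and capping genes, 8 of 20 filament binding genes and 3 of 8 linker and adhesion genes were lower, and of the transcription genes SRF, MRTFA and MRTFB 1 was higher. After arsenite 15 of 64 were lower in the nucleus and the other 49 were not called (median -0.21, all genes -0.03), where 5.51% of all genes were lower and 2.56% higher.

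With arsenite in the cytoplasm, 15 of the 66 genes tested fell and 9 rose (median 0.03, all genes 0.06), against 9.91% and 10.2% of all genes, so that the count that rose is near the background. GSN, which encodes the severing protein gelsolin, fell most (log2 difference -2.98, SE 0.13, adjusted p = 1.04e-09, limma), followed by SPTBN1, a spectrin (-2.02, SE 0.13, adjusted p = 5.39e-08), and ARPC5, an Arp2/3 subunit (-1.71, SE 0.21, adjusted p = 3.04e-05). EVL (1.39, adjusted p = 0.00976), SRF, a transcription factor of actin genes (1.34, adjusted p = 0.0237), and MYL6, a myosin light chain (1.29, adjusted p = 0.0370), rose. In the nucleus 8 of 63 rose and 2 fell (median 0.15, all genes 0.04), against 5.57% and 2.28% of all genes. AHNAK, a large scaffold protein (1.76, SE 0.37, adjusted p = 0.00431), CTTN, cortactin (1.64, SE 0.13, adjusted p = 4.56e-08), and VASP, a filament elongation factor (1.38, SE 0.36, adjusted p = 0.0213), rose most, and GSN (-0.77, adjusted p = 6.86e-05) and SPTBN1 (-0.28, adjusted p = 0.0238) fell. The arsenite effect was higher in the nucleus than in the cytoplasm for 14 of 66 and lower for 5 (median 0.33, all genes -0.01), against 8.06% and 5.45% of all genes. PFN1 was among the 14 (1.58, SE 0.25, adjusted p = 4.95e-06); it is named here because it was among the largest mock differences.

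The 5 genes most like ACTB over the 12 fraction libraries, among 1939 others with at least 20 tags in each, were SFPQ (Pearson r = 0.996 of log2 gene sums), AK4 (0.993), PTP4A1 (0.992), ALYREF (0.991) and GSR (0.991). Those most like ACTG1 were NUP155 (0.978), ATF3 (0.948), MORF4L1 (0.942), SLC38A2 (0.939) and SCD (0.937). All shared the order of ACTB, with cytoplasmic mock highest and nuclear mock lowest. For example SFPQ stood at 767, 487, 298 and 204 CPM in cytoplasmic mock, cytoplasmic arsenite, nuclear arsenite and nuclear mock libraries. The libraries fall into 4 groups and share their depth and scaling, so these values only describe the pattern.

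In the APEX libraries ACTB was found in all 46, whereas ACTG1 and POTEF held few tags. ACTB ran from 6.83 CPM, a single tag, in an NLS enriched mock library to 1501 CPM in a G3BP input arsenite library. By mean level over all 16 groups, with 4 library pairs of JL0388 counted as 1 each because a test did not tell them from sampling noise (p = 0.072 to 0.107, permutation), the order was cytoplasmic mock (2385 CPM), cytoplasmic arsenite (1032), G3BP enriched arsenite (884 ± 434, n = 6), G3BP input arsenite (817 ± 517, n = 5), G3BP enriched mock (517 ± 228, n = 6) and nuclear arsenite (490). Then came NLS input arsenite (352), NES enriched arsenite (290 ± 186, n = 3), NES enriched mock (270), NES input arsenite (255), nuclear mock (249.5), G3BP input mock (249.3 ± 293, n = 4), NES input mock (217), NLS input mock (202), NLS enriched arsenite (158) and NLS enriched mock (100.1). The G3BP input mock place rests on replicate 2, at 688 CPM. Without it the mean was 103 ± 15.0 CPM (n = 3), next above the last group. Without the first pair, NES enriched arsenite stood at 183 ± 18.9 CPM (n = 2). Of the 15 pairs of neighbours in this order, only the first did not overlap. For ACTG1 the same held, with G3BP input arsenite next at 0 to 38.9 CPM in 5 libraries, and for POTEF all 15 pairs overlapped.

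NLS enriched libraries had the lowest group means of ACTB. In mock-treated cells they held 49.3, 6.83, 117 and 155 CPM, of which the first 2 libraries are such a pair, and the NES enriched libraries held 238, 536, 96.2 and 209 CPM. The groups overlap, and the log2 difference of -2.06 was not called (SE 0.71, adjusted p = 0.0562, limma), in a comparison where the median of all genes was 1.09 and the 18.1% of 2911 genes that were called were all higher. After arsenite it was -1.49 (SE 0.52, adjusted p = 0.0714; median of all genes 0.88; 6.6% of genes called). The fits over the APEX libraries keep both libraries of a pair as separate samples. With each pair counted once the differences were -1.66 and -0.94 (adjusted p = 0.109 and 0.236). The library sets disagree. Within JL0388 the NLS libraries were below the NES libraries (-4.05 in mock, from 11 and 36 tags, and -3.15 after arsenite), and within JL1024 they overlapped (-0.07 and 0.16). After arsenite the JL0388 libraries of each line are such a pair, so that difference sets 1 library against 1. Scaled to tags in peaks, the JL1024 differences were -0.62 in both treatments, and the arsenite groups were apart.

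Set against their own inputs, NLS enriched libraries were lower in ACTB (log2 difference -1.69, SE 0.32, adjusted p = 0.0464, limma; median of all genes -0.43), where 1.13% of 8376 genes were called. The direction was the same in both sets, -2.21 in JL0388 and -1.17 in JL1024, with no overlap in either. With each pair counted once the call was kept (-1.61, adjusted p = 0.00245). Scaled to tags in peaks, the call was lost (-1.28, adjusted p = 0.0900), and the JL1024 groups overlapped (-0.71). The call was lost with any of 7 of the 12 libraries left out, among them NLS input mock replicate 1 and NLS enriched arsenite replicate 1, and in the fit blocked on the replicate number (-1.54). ACTB differences between NES enriched libraries and their inputs (0.17, adjusted p = 0.758; median of all genes -1.20, 15.7% called) and between G3BP enriched libraries and theirs (0.93, SE 0.49, adjusted p = 0.204; median of all genes -0.80, 3.03% called) were not called. For NES they went opposite ways in the sets, 1.14 in JL0388 and -0.80 in JL1024. Scaled to tags in peaks, they were 2.21 and 0.33, and 1.26 over both sets.

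G3BP enriched libraries, meant to report on stress granules, held 214.5 to 853 CPM of ACTB in mock (median 542, n = 6; 3 of these libraries hold 1, 2 and 8 ACTB tags, and the lowest level is the single tag) and 376 to 1470 CPM in arsenite libraries (median 641 of 7 libraries). The arsenite difference was 0.65 (SE 0.46, adjusted p = 0.531, limma; median of all genes 0.77). Against NES enriched libraries, G3BP enriched ones differed by 0.98 in mock (adjusted p = 0.872; median of all genes 0.20) and 1.02 in arsenite libraries (adjusted p = 0.183; median of all genes 0.98, 3.67% called), overlapping in JL0388 (-0.07, from 9 and 36 tags, and 0.38) and apart in JL1024 (2.03 and 1.66). Scaled to tags in peaks, the JL1024 difference was 0.96 in mock and 0.24, with overlap, in arsenite libraries, and the JL0388 arsenite groups were apart in the other direction (-0.41). Each of these JL0388 arsenite groups is a pair that counts as 1 library. The sign over both sets turned with TMM scaling (-0.06 in mock and -0.45 in arsenite libraries). Over the inputs of the 3 lines ACTB was higher after arsenite by 1.20 without passing the adjusted threshold (SE 0.31, unadjusted p = 2.37e-04, adjusted p = 0.407, limma), and the difference was positive in each set (1.80, 0.52 and 1.39). Of the 9 APEX comparisons, those of G3BP with NES in mock, of arsenite in G3BP enriched libraries and of arsenite in inputs called 0% of all genes with limma, where 87, 317 and 678 genes had an unadjusted p under 0.05 and edgeR with the authors' totals called 0.351%, 2.22% and 5.63%. ACTG1 and POTEF were not called in any APEX comparison that tested them. ACTG1 reached 3 or more tags in only 1 of the 8 NLS enriched and 0 of the 8 NES enriched libraries.

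**Figure D4:**
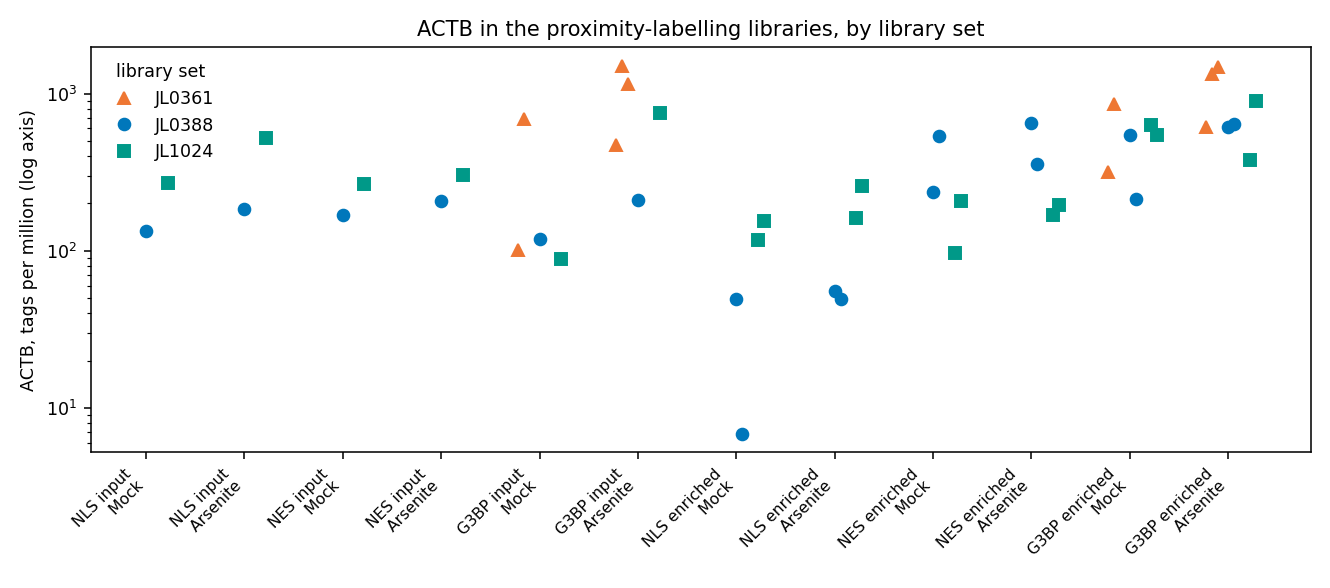
ACTB sum (tags per 1000000 of the library total, log axis) in each of the 46 APEX libraries by group, with the library set as colour and shape. NLS enriched libraries of JL0388 lie at 6.83 to 55.5 CPM, below every NES enriched library of that set (238 to 654 CPM), while the JL1024 libraries of both lines overlap.

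Where ACTB tags fell along the 3' end differed between the library sets. Among libraries with at least 50 ACTB tags, the highest peak held 16.7 to 37.4% of ACTB tags in the 6 inputs of JL0388, against 80.2 to 89.0% in the 3 inputs of JL0361, 86.5 to 89.9% in the 3 of JL1024 and 51.4 to 71.0% in the fractions. The peak 316 nt downstream held 24.2 to 35.5% in JL0388 inputs, 6.21 to 9.05% in JL0361 and 4.63 to 6.47% in JL1024 inputs. Among enriched libraries the highest peak held 80.0 to 98.4% in 9 libraries of JL1024, 89.5 to 91.7% in 3 of JL0361, above the inputs of that set, and 24.1% (13 of 54 tags) in the only one of JL0388. The peak 316 nt downstream held 1.61 to 13.5%, 1.69 to 3.10% and 31.5% in these libraries. The sets are names in the labels; RNase I was used at 1:100 or 1:5000, and which library had which is not given in the sources used here. Their part in the shares was not tested. The fraction comparisons lie within 1 set and are not split by it.

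**Figure D5:**
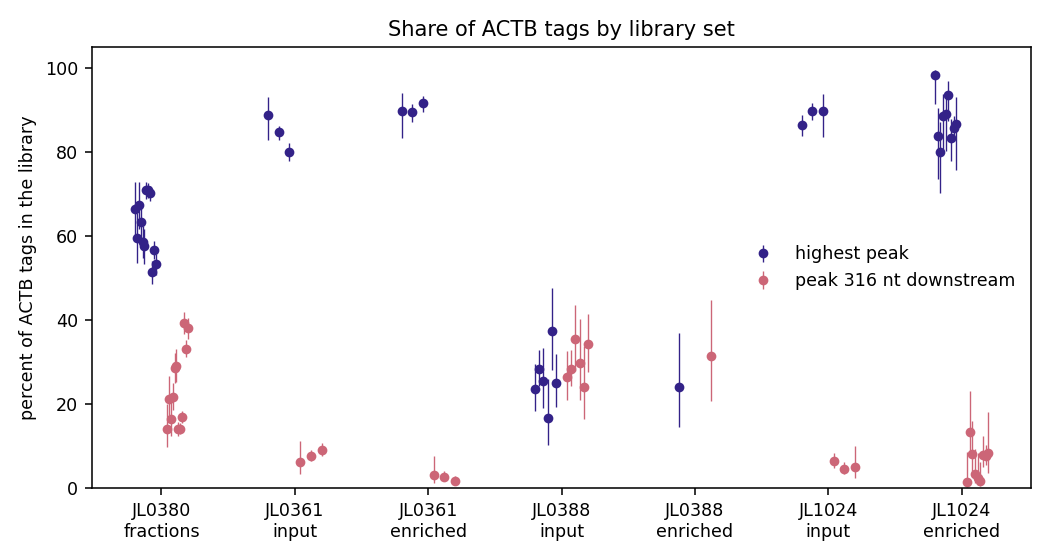
Percent of ACTB tags in the highest peak (blue) and in the peak 316 nt downstream (red) for each library with at least 50 ACTB tags, by library set and kind, with 95% Wilson intervals (counting error only). JL0388 libraries lie at 16.7 to 37.4% in the highest peak, below the fractions (51.4 to 71.0%) and the other sets (80.0 to 98.4%).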

How the data were processed

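The deposited table gives a signal for each peak in each library. Each value is a number of tags divided by a library total; this reading comes from the values, 100% of which were whole multiples of the smallest (tolerance 0.01), so whole tags were recovered. The listed peaks held 3.85% to 38.7% of those totals. Bowtie2, SAMtools, bedtools, HOMER and GRCh38.p14 are named in the submitters' processing notes, with no role. Of 395471 lines 8257 repeated another and were dropped; 84358 peaks have no gene name. Coordinates are as deposited, and their first base may be numbered 0 or 1. RefSeq spans are of the same build. Antibody 3A2 was used, per the labels' protocols.

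The pseudocount is what 1 tag is worth in the median library. The members and lists were chosen with earlier results of these data known. Named were the members, the highest peak per class, the 3 largest called differences each way (member peaks; actin lists, mock fractions and arsenite), and the 5 genes most correlated with ACTB and with ACTG1. Other genes or peaks were named after their values were seen.

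limma 3.58.1 (R 4.3.3; lmFit, eBayes with trend) was run on log2(value + 2.28 CPM) for peaks and for sums per gene name, over all features above 0 in as many libraries as the smaller group has, or more, two-sided, Benjamini-Hochberg at 0.05. APEX comparisons had the library set, and also the treatment (enriched against input) or the line (arsenite in inputs), as covariates; G3BP against NES used JL0388 and JL1024. edgeR 4.0.16 (quasi-likelihood, recovered tags) was an alternative, with other pseudocounts, filters, scalings, pooled copies, the replicate block and each library left out. Recovery was tested on simulated data. Shares were compared with exact permutation tests (scipy 1.17.1, Python 3.11.15). Wilson and exact intervals (95%) cover counting error only. Library pairs of JL0388 that a permuted chi-square test did not tell from sampling noise, at a depth where pairs of the same group in another set did differ, count as 1 in means and SDs, not in the tests (4 pairs). A further pair (G3BP enriched mock replicates 3 and 4, permutation p = 0.785) stays as 2 libraries, since at its depth not every pair in the other sets differed.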

Additional observations from a re-analysis of the deposited data

Results flagged for a closer look

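The effect of arsenite differed between the nuclear and the cytoplasmic fraction by an interaction test (limma) for the sums of ACTB (log2 2.162), ACTG1 (2.428) and POTEF (3.455). It also differed at the highest peaks of ACTB (2.446), ACTG1 (2.427) and POTEF (3.762) and at the ACTB peaks 130 nt downstream (2.2), 82 nt upstream (1.828) and 316 nt downstream (1.447).

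Libraries far from the others of their group were looked for in the 8 groups of 4 to 7 libraries for each of the 3 genes, 24 checks in all, where chance marks about 1 in 20. ACTB was high in G3BP input mock replicate 2, at 687.9 CPM from 145 tags, with the next library at 118.9 CPM. The other far values rest on 1 or 2 tags: ACTG1 at 8.744 CPM in an NES enriched mock and 4.458 CPM in an NLS enriched arsenite library, and POTEF at 135.5 CPM in a G3BP enriched mock, 52.28 CPM in an NES enriched arsenite and 39.73 CPM in an NES enriched mock library.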

How the results depend on the processing

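For mock nuclear against cytoplasmic, cytoplasmic arsenite and the interaction, every member gene tested was called under each alternative run: 3 of 3, also with any 1 library left out, but 2 of 2 with ACTB, POTEF and POTEE pooled and, except in cytoplasmic arsenite, with the filter of non-zero in every library, which drops POTEF. For nuclear arsenite the count was 1 with the filter of non-zero in every library and with ACTB, POTEF and POTEE pooled, and 1 to 2 with a library left out, POTEF being the one lost; for nuclear against cytoplasmic after arsenite it was 1 to 3. In the mock and the nuclear arsenite comparison the filter fixed the direction of POTEF, so its part in these counts supports nothing. Peak counts were less stable. Non-zero in every library gave 4 of only 4 tested in mock nuclear against cytoplasmic. After arsenite it gave 4 of 7 tested, where no filter gave 5, edgeR with the authors' totals 4 and with TMM 1. In cytoplasmic arsenite edgeR with TMM gave 2, and in nuclear arsenite 1. With a library left out the counts were 0 to 8 (mock, nuclear against cytoplasmic), 0 to 1 (arsenite, nuclear against cytoplasmic), 0 to 5 (cytoplasmic arsenite), 0 to 3 (nuclear arsenite) and 4 to 7 (interaction). Leaving out a library also leaves fewer degrees of freedom. Differences at the highest ACTB peak moved by up to 0.39 (log2) between TMM and the authors' totals.

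NLS against NES enriched gave 1 called gene (ACTB) with no filter, with non-zero in every library, with the replicate block (mock), with edgeR TMM (arsenite) and with 0 to 1 in mock when a library was left out; arsenite inputs gave 1 with edgeR and the authors' totals. NLS enriched against input gave 0 with no filter, scaled to tags in peaks and with the replicate block, and 0 to 1 with a library left out. Replicate numbers did not pair the fraction libraries (correlations of same-numbered deviations -0.0032 to 0.0107), and the replicate block changed 1 other call, the interaction at the ACTB peak 1077 nt upstream (2.08, then called).

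Signs turned for differences that were not called in the main tests. Not all were small, as ACTB in G3BP against NES enriched libraries was at 0.98 in mock and 1.02 in arsenite. The ACTB peak 130 nt downstream in nuclear arsenite was -0.01404 scaled to tags in peaks and -0.0366 to 0.131 with a library left out. G3BP against NES enriched ACTB was -0.05946 in mock with TMM, and in arsenite -0.08168 scaled to tags in peaks and -0.4535 with TMM. POTEF was -0.1453 in G3BP enriched arsenite with edgeR and the authors' totals, -0.05977 and -0.2334 in arsenite inputs with edgeR (authors' totals, TMM) and -0.07619 in NES enriched against input with the replicate block. ACTG1 in G3BP enriched against input was 0.2519 scaled to tags in peaks and 0.6343 with TMM. With a library left out, signs also turned for the POTEF peak 300 nt downstream in cytoplasmic arsenite (-0.194 to 0.253), the ACTB peak 316 nt downstream there (-0.116 to 0.279), POTEF in NLS against NES arsenite (-1.651 to 0.1807) and in G3BP enriched arsenite (-0.1631 to 1.212), and, enriched against input, ACTG1 in G3BP (-0.4434 to 0.1102) and ACTB (-0.1207 to 0.4769) and POTEF (-0.1622 to 0.6457) in NES. The nuclear arsenite differences in 3'UTR share ran from -0.168 to 0.0217 points for ACTB and -15.0 to 31.9 for ACTG1, and those of the downstream ACTB share kept their sign (20.6 to 23.6 in the cytoplasm, 7.59 to 11.5 in the nucleus). The cause was not tested.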
